A study of Mus musculus with 13 samples.

Results

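The genes described are 9 genes that encode collagen IV, laminin chains and nidogen of the basement membrane: Col4a1, Col4a2, Lama1, Lama3, Lama5, Lamb1, Lamb3, Lamc1 and Nid1. They were taken by symbol from a given list, which was chosen with earlier results of these data known. All 9 were found among the 24054 genes counted in every table. The question was how these genes differed between intestinal cells of the mouse with and without loss of Apc, the tumour suppressor that restrains Wnt signalling.

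The basement membrane is the thin sheet of matrix on which an epithelium sits. Laminins are trimers of an alpha, a beta and a gamma chain that polymerise at the cell surface. Collagen IV forms a second network, in which the chains encoded by Col4a1 and Col4a2 assemble into one protomer, and nidogen binds both networks. In the intestine much of the collagen IV is known to come from mesenchymal cells, whereas epithelial cells are a known source of several laminin chains, so levels in epithelial material are shown here beside markers of other cells.

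RNA sequencing of polyA RNA was deposited for 13 libraries in 6 groups from adult mice. Every group, WT included, received tamoxifen, in 2 doses of 1 mg. Whole organoids from ileal crypts, at 10 days post induction, were Sec-Cre Apc-null (Atoh1CreERT2;Apcfl/fl;Rosa26tdTomato, n = 2), ISC-Cre Apc-null (Lgr5eGFP-CreERT2;Apcfl/fl;Rosa26tdTomato, n = 2) or WT (genotype given only as WT, n = 2). Flow cytometry gave intestinal stem cells (ISCs), which were duodenal ISC-Cre Apc-null (Lgr5eGFP-CreERT2;Apcfl/fl;Rosa26tdTomato, 14 days post induction, n = 3), ileal Sec-Cre Apc-null (Atoh1CreERT2;Apcfl/fl;Lgr5DTR-GFP;Rosa26tdTomato, 21 days, n = 2) or ileal WT (Apcfl/fl;Lgr5DTR-GFP;Rosa26tdTomato without Cre, 21 days, n = 2). Atoh1 drives Cre in the secretory lineage and Lgr5 in stem cells, and Cre deletes the floxed Apc in those cells. No label states that replicates are separate animals or cultures. The p-values therefore reflect only how these samples varied, which may be technical variation. The shared protocol names duodenal epithelium alone, so the ileal origin of a sample rests on its own labels.

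The gene counts came to between 11524335 and 45516228 per library. Levels are given as CPM, the count of a gene relative to the library's total count, scaled by the TMM method over all 13 libraries, and a gene was called where the adjusted p was under 0.05. Apc itself was read in all 13 libraries, at 48.6 to 453.9 CPM, and counts over the whole gene do not check a deletion of part of it. Axin2, a Wnt target gene, stood at 764.4 to 797.0 CPM in the 4 Apc-null organoid libraries, against 221.3 and 388.4 CPM in WT organoids. Among ISCs its level was 709.7 to 795.9 CPM in the 3 duodenal libraries, and 80.9 and 38.2 CPM in the 2 ileal libraries labelled Sec-Cre Apc-null, against 325.2 and 286.4 CPM in ileal WT ISCs. The ileal libraries labelled Sec-Cre Apc-null therefore had less Axin2 than WT, the opposite of the other Apc-null groups. They also stood apart in other ways: the unmapped share of reads was 57.0% and 35.8%, against 13.9% and 5.01% for ileal WT ISCs, enterocyte markers held 1.42% to 1.73% of gene counts, against 0.0677% to 0.0728% in ileal WT ISCs, and Paneth cell markers held 25.2% in replicate 1 and 0.858% in replicate 2, against 2.1% and 2.13% in ileal WT ISCs. The scaling factor of replicate 1 was 0.344, which raises its CPM values, whereas the other libraries had factors of 0.868 to 1.21. The duodenal ISC libraries were strand-specific (98.5% to 98.9% of reads on one strand), while the other 10 were not (48.4% to 51.1%).

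Col4a1 and Col4a2 lie head to head on mouse chromosome 8, and their promoters are shown because the genes were high in the same groups and near 0 in the others. In the mm10 annotation (GENCODE release 21) Col4a1 spans 11198423 to 11312826 on the minus strand and Col4a2 spans 11312805 to 11449287 on the plus strand. The first exons overlap by 22 bases on opposite strands. The windows below run from 250 bases before to 50 bases after each RefSeq start on GRCm38.p6, 5′ to 3′ on the gene's own strand, at chr8:11312777-11313076 for Col4a1 and chr8:11312555-11312854 for Col4a2. The 78 bases in capitals, chr8:11312777-11312854, are the stretch that both windows hold, once on each strand.
Col4a1: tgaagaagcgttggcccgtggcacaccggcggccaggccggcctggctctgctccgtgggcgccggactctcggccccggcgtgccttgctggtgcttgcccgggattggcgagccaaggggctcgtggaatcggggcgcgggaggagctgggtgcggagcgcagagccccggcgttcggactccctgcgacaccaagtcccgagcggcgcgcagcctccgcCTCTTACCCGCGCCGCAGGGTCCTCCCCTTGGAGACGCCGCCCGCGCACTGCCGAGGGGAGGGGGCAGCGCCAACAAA
Col4a2: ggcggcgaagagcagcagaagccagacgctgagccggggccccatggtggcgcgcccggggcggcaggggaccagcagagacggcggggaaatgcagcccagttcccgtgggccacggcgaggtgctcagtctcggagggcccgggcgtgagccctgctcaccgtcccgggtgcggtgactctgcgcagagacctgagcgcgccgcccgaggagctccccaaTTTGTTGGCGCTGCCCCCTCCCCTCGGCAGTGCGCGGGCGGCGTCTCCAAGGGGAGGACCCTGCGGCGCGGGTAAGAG

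The window of Lama5, whose transcript was the most abundant member per kb of exon in Apc-null organoids, lies on the minus strand at chr2:180225810-180226109. It holds 4 copies of the SP/KLF letters GGGCGG or CCGCCC, shown in capitals, and these letters occur on either strand in 35.7% of 32851 RefSeq promoter windows of this length.
Lama5: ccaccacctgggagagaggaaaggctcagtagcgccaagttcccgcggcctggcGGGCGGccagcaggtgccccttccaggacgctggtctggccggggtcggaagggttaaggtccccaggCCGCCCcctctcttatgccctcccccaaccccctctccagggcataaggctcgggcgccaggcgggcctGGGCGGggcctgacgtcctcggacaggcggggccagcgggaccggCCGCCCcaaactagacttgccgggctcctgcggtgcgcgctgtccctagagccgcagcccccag
The Col4a1 window holds 1 such copy and the Col4a2 window 3. The TCF/LEF core, CTTTGA or TCAAAG, the site of the factors through which Wnt signals, was in 16% of all windows and in none of the 7 windows found for 6 of the members (Col4a1, Col4a2, Lama5, Lamb1, Lamb3 with a pair of starts, and Nid1). The AP-1 letters TGANTCA, read on both strands, were in 7.81% of all windows and in none of these 7. The TEAD core, GGAATG or CATTCC, was in 14.7% of all windows and in 2 of these 7, one of the Lamb3 windows and that of Nid1. No match says only that these letters are not in these windows.

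Both collagen IV genes were far higher in Apc-null organoids than in WT organoids. Col4a1, which encodes the alpha chain present as a pair in the common protomer, had 67.8 and 119.8 CPM in Sec-Cre organoids and 55.3 and 97.0 CPM in ISC-Cre organoids, against 0.2105 and 0.2195 CPM in WT organoids. The WT values rest on 3 and 5 counts. No Apc-null organoid library came near a WT one. In edgeR's quasi-likelihood test Col4a1 was higher by 8.71 ± 0.56 on the log2 scale (SE, adjusted p = 6.9e-05) in Sec-Cre organoids and by 8.40 ± 0.55 (adjusted p = 6.8e-05) in ISC-Cre organoids. Col4a2, its partner chain, had 64.8 and 96.7 CPM in Sec-Cre organoids and 43.4 and 71.0 CPM in ISC-Cre organoids, against 0.561 and 1.49 CPM in WT organoids. Its fold change over WT by edgeR was 72.3 (log2 6.18 ± 0.46, adjusted p = 0.00013) in Sec-Cre organoids and 50.9 (log2 5.67 ± 0.46, adjusted p = 0.00014) in ISC-Cre organoids.

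The laminin alpha chains Lama5 and Lama3 were also higher in Apc-null organoids. Lama5, the main alpha chain of the mature epithelial basement membrane, had 416.8 and 414.9 CPM in Sec-Cre organoids and 452.3 and 457.5 CPM in ISC-Cre organoids, against 50.04 and 20.06 CPM in WT organoids. That is 11.8 times (log2 3.56 ± 0.38, edgeR adjusted p = 0.00059) and 12.9 times (log2 3.68 ± 0.38, adjusted p = 0.00044) the WT level. The 4 Apc-null values lay within a narrow band, while the 2 WT values differed from each other. Lama3, the alpha chain of the laminin at hemidesmosome-type contacts, had 42.0 and 36.1 CPM in Sec-Cre organoids and 60.3 and 56.8 CPM in ISC-Cre organoids, against 11.1 and 2.68 CPM in WT organoids. It was higher by 2.53 ± 0.53 (edgeR adjusted p = 0.0101) and 3.11 ± 0.54 (adjusted p = 0.00385) on the log2 scale. Lama3 lies at 12333819 to 12583013 of chromosome 18 in mm10, and an antisense gene overlaps 1.83% of its exon bases. Lama5 lies at 180176373 to 180225859 of chromosome 2 and Lama1 at 67697259 to 67822647 of chromosome 17.

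Lama1, the alpha chain known from embryonic basement membranes, was scarce everywhere. It had 0.0819 and 0.115 CPM in Sec-Cre organoids, from 2 and 3 counts, and 1.08 and 0.278 CPM in ISC-Cre organoids, from 27 and 6 counts, with no count in either WT organoid library. It did not pass the filter on low counts of the organoid libraries, so it was not tested there.

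Of the beta and gamma chains, Lamc1 and Lamb3 had smaller estimates. Lamc1, the gamma chain of most laminins, had 109.9 and 128.1 CPM in Sec-Cre organoids and 126.5 and 103.6 CPM in ISC-Cre organoids, against 66.2 and 69.1 CPM in WT organoids. It was 1.74 times the WT level (edgeR adjusted p = 0.00597) in Sec-Cre organoids and 1.67 times (adjusted p = 0.00706) in ISC-Cre organoids. In a fit of all 13 libraries, which share a wider spread, neither call of Lamc1 held (edgeR adjusted p = 0.235 and 0.261). Lamb3, the beta chain that pairs with Lama3, had 180.0 and 159.6 CPM in Sec-Cre organoids and 230.4 and 171.3 CPM in ISC-Cre organoids, against 109.3 and 124.6 CPM in WT organoids. It passed in ISC-Cre organoids (1.69 times, edgeR adjusted p = 0.0116; 0.0677 without ISC-Cre replicate 1) and had an adjusted p of 0.0509 in Sec-Cre organoids (1.43 times). There it passed with DESeq2 (adjusted p = 0.0222), with no filter on low counts (0.0256) and without one or the other ISC-Cre library (0.0365 and 0.0369). In both Apc-null groups every library lay above both WT libraries, but the share of all genes for which this holds was not computed.

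Lamb1, the beta chain of the laminins with Lama1 or Lama5, did not pass although the groups did not overlap. The share of all genes without overlap was not computed. Lamb1 had 26.4 and 26.8 CPM in Sec-Cre organoids and 37.2 and 30.6 CPM in ISC-Cre organoids, against 9.61 and 0.351 CPM in WT organoids. The 2 WT libraries, with 137 and 8 counts, differed from each other more than either Apc-null pair did. The log2 difference was 2.47 ± 0.96 (edgeR adjusted p = 0.086) in Sec-Cre organoids and 2.82 ± 0.97 (adjusted p = 0.0542) in ISC-Cre organoids. With no filter on low counts it passed in Sec-Cre (edgeR adjusted p = 0.0127) and ISC-Cre organoids (0.0052), as it did with limma voom (0.0104 and 0.0079). Lamb1 also passed with 1 of the WT libraries left out: in Sec-Cre organoids at 6.21 (edgeR adjusted p = 0.00011) without WT replicate 1 and at 1.46 (adjusted p = 0.0033) without WT replicate 2, where the lone WT library is assumed to vary like the other groups. In ISC-Cre organoids the same values were 6.55 (edgeR adjusted p = 7.9e-05) without WT replicate 1 and 1.79 (adjusted p = 0.00138) without WT replicate 2. Nid1, which links laminin to collagen IV, had 4.42 and 3.36 CPM in Sec-Cre organoids and 7.09 and 4.21 CPM in ISC-Cre organoids, against 1.33 and 3.16 CPM in WT organoids, and did not pass (edgeR adjusted p = 0.306 and 0.0923; 0.0267 in ISC-Cre organoids without WT replicate 2). In mm10 Lamb1 lies at 31265234 to 31329644 of chromosome 12, Nid1 at 13437551 to 13512269 of chromosome 13, and Lamb3 (193207699 to 193343878) and Lamc1 (153218922 to 153332786) on chromosome 1. Antisense genes overlap 2.06% of the exon bases of Nid1 and 0.65% of those of Col4a2, whose reads cannot be told apart in the libraries without strand, while in the strand-specific duodenal libraries 97.63% or more of each member's reads were on the sense strand in each library.

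Over the 8 members in the organoid fit, 5 were called higher and 0 lower in Sec-Cre organoids, where 16.7% of 14208 genes were called higher. In ISC-Cre organoids 6 of 8 were called higher and 0 lower, where 19.3% of genes were called higher. The median log2 change of the members was 2.503 in Sec-Cre and 2.963 in ISC-Cre organoids, beside 0.05 and 0.03 over all genes tested. Of the same 14208 genes, 2318 were called lower in Sec-Cre and 2628 in ISC-Cre organoids. Col4a1, with 3 and 5 counts in WT organoids, passed the filter on low counts only through the Apc-null libraries. It could therefore be called only as higher. The 2 comparisons share their WT libraries. Markers of differentiated cells moved with the same groups. The 8 enterocyte markers were all called lower in both Apc-null groups by edgeR, with sums of 72.3 to 93.8 CPM in Apc-null organoids, against 3380 and 2156 CPM in WT organoids. Of 7 goblet cell markers 6 were called lower in both, with sums of 462.6 to 718.9 CPM, against 4558 and 4834 CPM in WT organoids. Of 9 Paneth cell markers tested, 7 were lower and 1 higher in Sec-Cre organoids and 3 lower and 1 higher in ISC-Cre organoids. Their part in the members' values was not tested.

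**Figure D1:**
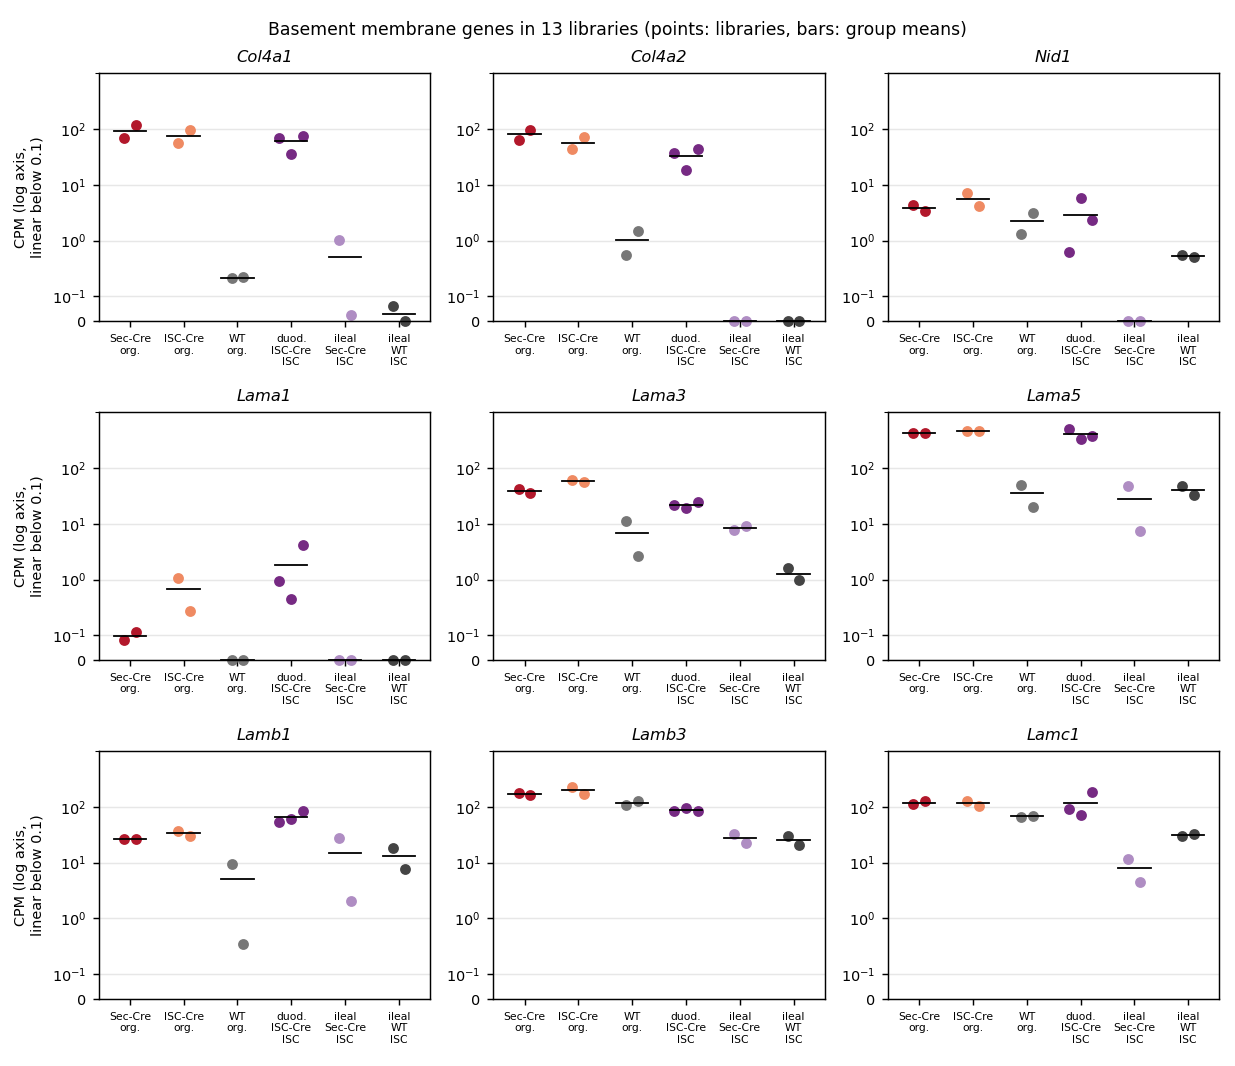
Level of each gene in CPM (vertical axis, logarithmic above 0.1 and linear below) in each of the 13 libraries (points) of the 6 groups (horizontal axis), with bars at group means. Col4a1 and Col4a2 sit at 18.8 to 119.8 CPM in Apc-null organoids and duodenal ISCs and at or below 1.49 CPM in the other groups, whereas Lamb3 stays between 20.4 and 230.4 CPM in all libraries.

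None of the 8 members tested differed detectably between the 2 drivers of Apc loss in organoids. Col4a1 averaged 93.8 ± 36.8 CPM in Sec-Cre organoids and 76.2 ± 29.5 CPM in ISC-Cre organoids (SD, n = 2 each), and Lama5 averaged 415.9 ± 1.35 CPM and 454.9 ± 3.68 CPM in the same groups. Lama3, at 39.0 ± 4.18 CPM in Sec-Cre organoids and 58.6 ± 2.46 CPM in ISC-Cre organoids, differed by -0.58 ± 0.48 on the log2 scale. Lama3, Lama5 and Lamb1 did not overlap between these groups, and neither did Lama1, which was not tested. The share of all genes without overlap was not computed, so this is not read as a result about the members. In edgeR's test 0 of 8 members were called, all with an adjusted p of 1, and 0 had an unadjusted p under 0.05. DESeq2 also called 0. Over all genes 0% were called higher and 0.0422% lower. A p that misses the threshold does not show equal levels: the widest estimate, that of Lamb1, was -0.34 ± 0.86 on the log2 scale. The members' median log2 difference was -0.18, beside 0.00 over all genes.

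**Figure D2:**
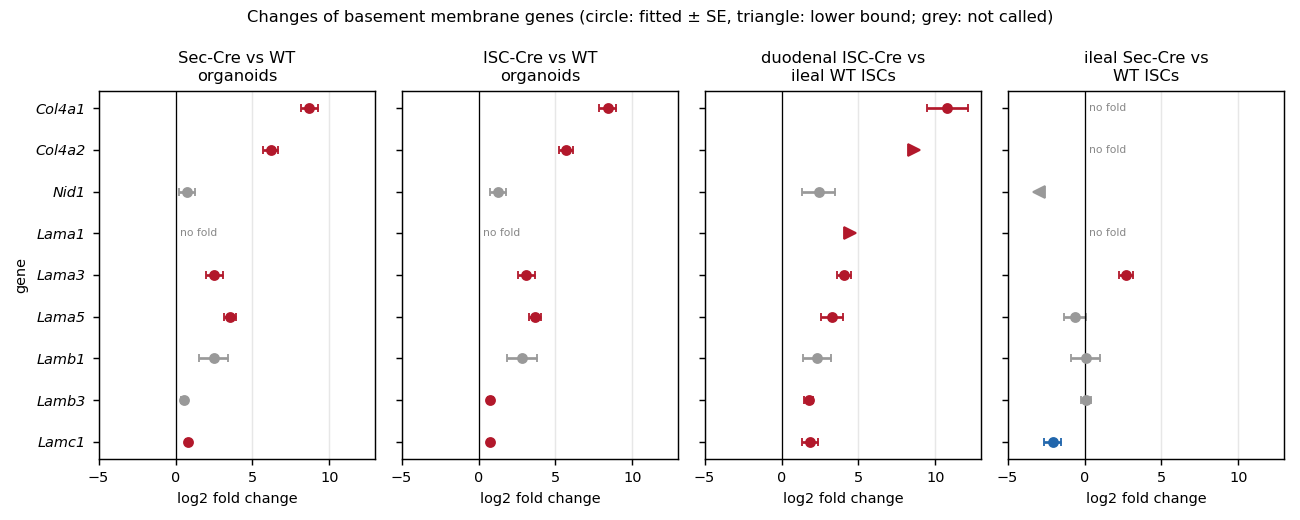
Log2 fold change (horizontal axis) of each gene (vertical axis) in 4 comparisons, with circles at the edgeR estimate ± SE and triangles at a lower bound from a floor of 3 counts, in red where called higher, blue where called lower and grey where not called. Col4a1 has the largest estimates in both organoid panels, at 8.71 and 8.40, and the ileal panel holds 1 higher call (Lama3) and 1 lower call (Lamc1).

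In ISCs collagen IV and the alpha chains were higher in the duodenal ISC-Cre libraries than in ileal WT ISCs. Col4a1 had 69.0, 36.0 and 76.2 CPM in duodenal ISC-Cre ISCs, against 0.0611 and 0 CPM in ileal WT ISCs, from a single count. The ratio of counts, scaled for depth, was 2099, with a 95% counting interval of 376.6 to 82940 (edgeR adjusted p = 0.00132). Col4a2 had 37.0, 18.8 and 43.9 CPM in duodenal ISCs and no count in either ileal WT library, which makes it at least 398.5-fold higher against a floor of 3 counts over the group (edgeR adjusted p = 0.000993). For neither gene did the groups overlap. The share of all genes without overlap was not computed, so this is not read as a result about the members.

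Among the alpha chains Lama5 had 494.7, 332.6 and 369.7 CPM in duodenal ISC-Cre ISCs, against 47.0 and 32.6 CPM in ileal WT ISCs (log2 3.28 ± 0.71, edgeR adjusted p = 0.0150). Lama3 had 22.0, 19.0 and 24.4 CPM, against 1.59 and 0.968 CPM in ileal WT ISCs (log2 4.05 ± 0.47, edgeR adjusted p = 0.00103). Lama1 had 0.933, 0.446 and 4.17 CPM in duodenal ISCs, from 28, 14 and 88 counts, and no count in ileal WT ISCs, at least 22.2-fold higher (edgeR adjusted p = 0.0450). None of the 3 genes overlapped between these groups, but the share of all genes without overlap was not computed.

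Of the other chains, Lamb3 had 85.5, 93.9 and 85.5 CPM in duodenal ISCs, against 29.8 and 20.4 CPM in ileal WT ISCs (log2 1.77 ± 0.31, edgeR adjusted p = 0.00582). Lamc1 had 93.1, 71.1 and 182.4 CPM, against 30.3 and 32.3 CPM in ileal WT ISCs (log2 1.85 ± 0.52, edgeR adjusted p = 0.0390). Lamb1, at 52.4, 60.0 and 82.6 CPM in duodenal ISCs against 18.4 and 7.54 CPM in ileal WT ISCs, did not pass (edgeR adjusted p = 0.114; 0.0100 and 0.0107 without one or the other library labelled Sec-Cre Apc-null). It passed with DESeq2 (adjusted p = 0.0184) and limma voom (0.00048). Nid1, at 0.633, 5.80 and 2.32 CPM in duodenal ISCs against 0.550 and 0.510 CPM in ileal WT ISCs, did not pass either (edgeR adjusted p = 0.168).

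In total 7 of 9 members were called higher in duodenal ISC-Cre ISCs than in ileal WT ISCs, where 10.2% of 14577 genes were called higher. The members' median log2 change was 3.28, beside 0.07 over all genes. Col4a1, Col4a2 and Lama1 passed the filter on low counts only through the duodenal libraries, so they could be called only as higher. With 1 ileal WT library left out, 4 members passed without replicate 1 and 3 without replicate 2. Lama5 then had an edgeR adjusted p of 0.0743 and 0.127, Lamc1 of 0.171 and 0.197, and Lama1 of 0.132 and 0.177, whereas Lamb3 lost its call only without replicate 2 (0.0892). Lamc1 also missed the threshold without duodenal replicate 1 (0.0666) or 3 (0.0851), and Lama1 without any single duodenal library (0.0634 to 0.0827). Gut region, Cre driver, days after induction, dissociation enzyme and library strandedness all differed between these groups, so their parts cannot be told apart.

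The 2 ileal libraries labelled Sec-Cre Apc-null gave a different picture from the other Apc-null groups. Col4a1 had 1.01 and 0.0253 CPM there, from 4 and 1 counts, against 0.0611 and 0 CPM in ileal WT ISCs, and Col4a2 and Lama1 had no count in any of these 4 libraries, so no fold change was formed for these 3 genes. Lama3 had 7.81 and 9.13 CPM in the libraries labelled Sec-Cre Apc-null, against 1.59 and 0.968 CPM in ileal WT ISCs, and was higher (log2 2.71 ± 0.47, edgeR adjusted p = 0.00826). Its adjusted p was 0.0530 without WT replicate 1 and 0.0877 without WT replicate 2.

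Lamc1 had 11.6 and 4.45 CPM in the ileal libraries labelled Sec-Cre Apc-null, against 30.3 and 32.3 CPM in ileal WT ISCs, and was lower (log2 -2.08 ± 0.57, edgeR adjusted p = 0.0406). It no longer passed without Sec-Cre replicate 2 (adjusted p = 0.136), without one or the other WT library (0.130 and 0.152), without duodenal replicate 1 (0.0638) and with DESeq2's size factors in edgeR (0.0524). Nid1 had no count in the libraries labelled Sec-Cre Apc-null and 0.550 and 0.510 CPM in ileal WT ISCs, at least 7.68-fold lower against the floor, and did not pass (edgeR adjusted p = 0.0698). The replicates labelled Sec-Cre Apc-null were far apart for Lama5, at 47.1 and 7.41 CPM against 47.0 and 32.6 CPM in ileal WT ISCs, and for Lamb1, at 27.7 and 2.08 CPM against 18.4 and 7.54 CPM. Without replicate 1, the library with the low scaling factor and the high Paneth share, Lama5 was lower by -2.47 on the log2 scale (edgeR adjusted p = 0.0119) and Lamb1 by -2.68 (adjusted p = 0.0310).

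Of the 6 members with a fold change in this comparison, 1 was called higher, where 9.62% of 14577 genes were called higher, and 1 was called lower, where 6.96% were. Their median log2 change was -0.27, beside 0.00 over all genes. The count of calls was 4 without Sec-Cre replicate 1, 1 without Sec-Cre replicate 2 and 0 without one or the other WT library. Set against the same libraries, duodenal ISC-Cre ISCs had 8 of 9 members called higher, where 21.0% of genes were called higher, and a median log2 change of 3.93, beside 0.12 over all genes. They included Lamc1 (log2 3.93 ± 0.59, edgeR adjusted p = 0.00149), Lama5 (log2 3.91 ± 0.74, adjusted p = 0.00424) and Lamb3 (log2 1.67 ± 0.31, adjusted p = 0.0038). Here too Col4a1, Col4a2 and Lama1 had passed the filter on low counts only through the duodenal libraries, so they could be called only as higher. Without Sec-Cre replicate 2 the count was 5, the losses being Lama1 (adjusted p = 0.177), Lama3 (0.0532) and Nid1 (0.0854). The call of Lama3 was lost without any single one of the 5 libraries compared (edgeR adjusted p = 0.0501 to 0.0948), and that of Lama1 also without Sec-Cre replicate 1 (0.0507). The 3 ISC comparisons share libraries.

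The Sec-Cre effect was then compared between organoids and ileal ISCs as an interaction in a fit of all 13 libraries, which was possible for 6 members. Lama5 differed, at 415.9 ± 1.35 CPM against 35.1 ± 21.2 CPM in WT among organoids and 27.3 ± 28.1 CPM against 39.8 ± 10.2 CPM in WT among ileal ISCs (SD, n = 2 each), a difference of log2 changes of 4.26 ± 0.92 (edgeR adjusted p = 0.00536). Lamc1 differed by 2.97 ± 0.65 (edgeR adjusted p = 0.00605), being higher than WT in organoids and lower than WT in the ileal libraries. Nid1 differed by 7.43 ± 2.13 (edgeR adjusted p = 0.0252), a fitted size that depends on the absence of counts in the ileal libraries labelled Sec-Cre Apc-null. Its call was lost without any one of 5 single libraries: Sec-Cre organoid replicate 1 (adjusted p = 0.0577), WT organoid replicate 1 (0.0632), ileal Sec-Cre replicate 2 (0.228) or one or the other ileal WT library (0.0541 and 0.0501). Lama3, with a difference of -0.16 ± 0.71 (edgeR adjusted p = 0.925), was called higher in both materials. In all, 3 of these 6 members were called higher, where 13.4% of 15208 genes were, and the median of the 6 was 2.71, beside 0.16 over all genes. The Axin2, Paneth and enterocyte values given above moved with the ileal group, and their part was not tested.

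WT organoids and ileal WT ISCs, both without Apc loss, differed in 3 of the 8 members tested. Lamb3 averaged 116.9 ± 10.9 CPM in WT organoids and 25.1 ± 6.62 CPM in ileal WT ISCs (SD, n = 2 each; log2 2.22 ± 0.27, edgeR adjusted p = 0.000956). Lama3 averaged 6.88 ± 5.95 CPM and 1.28 ± 0.44 CPM in the same groups (edgeR adjusted p = 0.0295), and Col4a2, without a count in ileal WT ISCs, was at least 12.3-fold higher in WT organoids (adjusted p = 0.0199). All 3 calls were higher, where 1.98% of genes were called higher, and the median log2 change was 2.16, beside 0.00 over all genes. Without one or the other ileal WT library Lamb3 alone passed: Lama3 had an edgeR adjusted p of 0.0841 and 0.265 and Col4a2 of 0.0754 and 0.137, and Lama3 also missed without WT organoid replicate 1 (0.318) and Col4a2 without WT organoid replicate 2 (0.102). Lama5 (edgeR adjusted p = 0.95) and Lamb1 (0.596) overlapped between these groups. Whole organoids hold all epithelial lineages, whereas stem cells were isolated. The labelled genotype and the days after induction (10 against 21) also differed between these groups. The parts of cell make-up, culture, genotype and time therefore cannot be told apart here. In bulk RNA fewer cells of a type and less RNA per cell cannot be told apart either.

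Per kb of exon, the order of the chains differed with Apc status in organoids. Lama5 came first in Sec-Cre organoids (36.5 ± 0.12 CPM per kb), ISC-Cre organoids (39.9 ± 0.32) and duodenal ISC-Cre ISCs (35.0 ± 7.46; SD). In Apc-null organoids this rank depends on the length used. Per kb of the longest transcript, which leaves Lama5 unchanged, Lamb3 averaged 41.3 CPM per kb in ISC-Cre organoids, above Lama5. In Sec-Cre organoids it averaged 34.9, just below Lama5. Lamb3 came first in WT organoids (17.7 ± 1.64 CPM per kb), with Lamc1 at 8.18 ± 0.25 and Lama5 at 3.08 ± 1.86. In ileal WT ISCs the means of Lamb3 (3.80 ± 1.00), Lamc1 (3.78 ± 0.17) and Lama5 (3.49 ± 0.90) lay within their spread. Col4a1 and Col4a2 averaged 12.6 ± 4.93 and 12.2 ± 3.40 CPM per kb in Sec-Cre organoids, against 0.0288 and 0.155 CPM per kb in WT organoids.

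Summed over each class per kb, the alpha chains were scarcer than the beta chains in WT organoids, at 5.43 and 2.03 CPM per kb beside 20.7 and 22.6. In Apc-null organoids the alpha sum was 40.2 to 46.7 CPM per kb and the beta sum 39.3 to 61.2. The alpha sum was below the beta sum in replicate 1 of both groups and above it in replicate 2. The widest gap was in ISC-Cre replicate 1, at 46.7 beside 61.2. Lama5 made up 85.01% to 90.8% of the alpha sum in Apc-null organoids, against 81.0% and 87.0% in WT organoids. It held 92.2% to 95.2% in duodenal ISC-Cre ISCs, 85.1% and 42.8% in the ileal libraries labelled Sec-Cre Apc-null, and 87.3% and 83.7% in ileal WT ISCs. Among beta chains Lamb3 held 56.9% to 61.9% in Apc-null organoids, against 79.9% and 83.4% in WT organoids, and Lamb2, a beta chain of mature basement membranes, held 31.5% to 37.0%, against 15.4% and 16.5%. In duodenal ISCs Lamb2 (42.1% to 44.9%) and Lamb3 (33.5% to 40.6%) were close. These sums and shares depend on annotated exon length and were not tested.

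**Figure D3:**
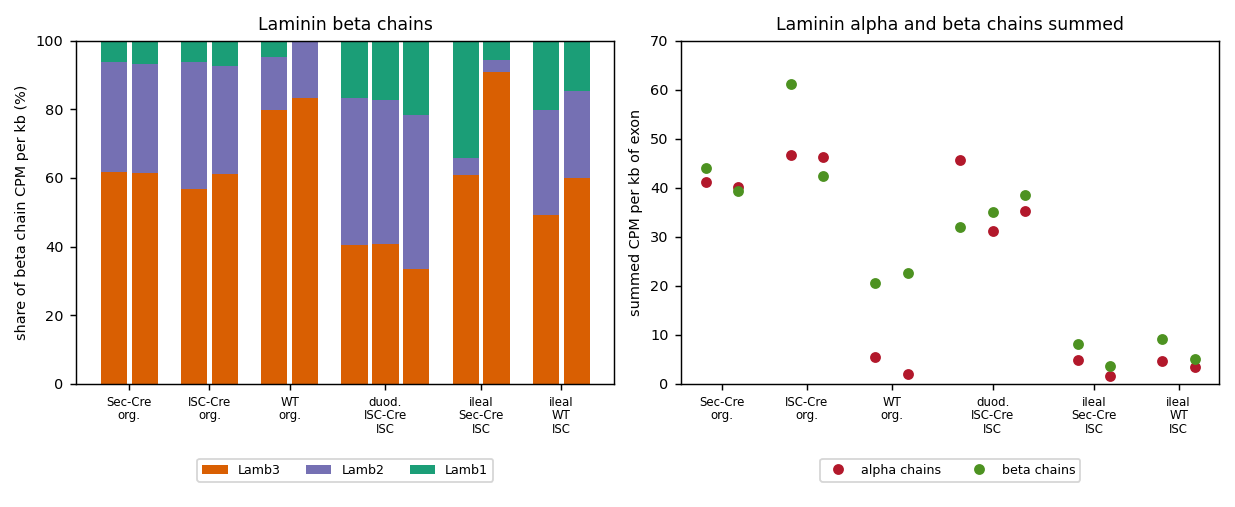
Left, share (%) of Lamb3, Lamb2 and Lamb1 in the summed beta chain CPM per kb of exon, 1 bar a library; right, summed CPM per kb of the alpha and beta chains, 1 point a library and class. The alpha sum stands at 5.43 and 2.03 in WT organoids and at 40.2 to 46.7 in Apc-null organoids.

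The proportion of the 2 collagen IV chains was compared where each had at least 100 counts. Duodenal ISC-Cre ISCs had 1.87, 1.92 and 1.74 Col4a1 reads per Col4a2 read, against 1.05 and 1.24 in Sec-Cre organoids and 1.28 and 1.37 in ISC-Cre organoids. The mean was 1.84 ± 0.09 (SD, n = 3) in the duodenal libraries and 1.23 ± 0.13 (n = 4) in Apc-null organoids. The groups did not overlap, and the exact two-sided permutation test gave p = 0.0571, the smallest it can give for 3 against 4. On the sense strand alone the duodenal ratios were 1.87, 1.92 and 1.76, close to those from both strands. The organoid libraries were not strand-specific, so the same check could not be made there. This comparison was chosen after the values were seen, so its p-value adds no support. It also pools the 2 groups of Apc-null organoids. Gut region, isolated cells against culture and library strandedness differed between the sides, so their parts cannot be told apart.

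**Figure D4:**
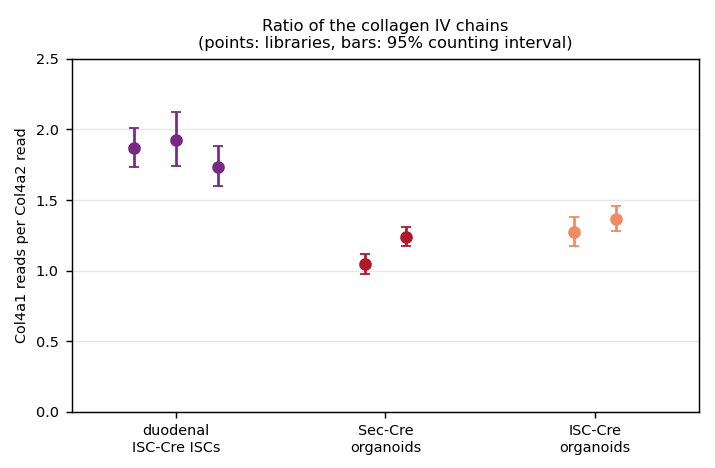
Col4a1 reads per Col4a2 read (vertical axis, from 0) in each library (points) with 95% counting intervals, for duodenal ISC-Cre ISCs, Sec-Cre organoids and ISC-Cre organoids. The 3 duodenal libraries lie at 1.74 to 1.92 and the 4 organoid libraries at 1.05 to 1.37.

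Markers of mesenchymal and endothelial cells, both makers of collagen IV, were read in the same libraries. The 13 fibroblast and muscle markers summed to 6.54 to 18.6 CPM in Apc-null organoids, with 12 of 13 detected and Lum at 0, against 5.47 and 7.07 CPM in WT organoids, with 5 of 13 detected. Of 8 tested, 2 were called higher and 1 lower in Sec-Cre organoids, and 5 higher and 1 lower in ISC-Cre organoids. Among all 14208 genes, 16.7% and 19.3% were called higher in these groups, and 2318 and 2628 genes lower. The part of such cells in the results was not tested. Col1a1, the main fibrillar collagen of fibroblasts, reached at most 1.35 CPM in any organoid library, beside 55.3 to 119.8 CPM of Col4a1 in the Apc-null ones. In duodenal ISCs the sum was 29.1, 74.4 and 29.2 CPM, and Col1a1 was 20.2 CPM in replicate 2, with 3 and 1 counts in replicates 1 and 3. Other markers of the list followed the groups of collagen IV. Acta2, smooth muscle actin, had 0.612 to 8.57 CPM in Apc-null organoids and no count in WT organoids, and it had 11.5 to 18.2 CPM in duodenal ISCs and no count in ileal WT ISCs. Pdgfra, a receptor of mesenchymal cells, had 0.726 to 1.57 CPM in Apc-null organoids and no count in WT organoids, and it had 5.84 to 9.73 CPM in duodenal ISCs, against 0.0611 and 0 CPM in ileal WT ISCs.

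The 11 endothelial markers summed to 22.4 to 37.8 CPM in Apc-null organoids, with 10 of 11 detected in Sec-Cre and 8 in ISC-Cre organoids, against 7.37 and 9.92 CPM in WT organoids, with 6 detected. The markers of this list went different ways. Pecam1, a defining marker, was at 0 in both ISC-Cre organoid libraries and at most 0.756 CPM in all 13 libraries. In ISCs the sums were 99.1 to 169.2 CPM in the duodenal libraries, with 11 of 11 detected, and 10.1 and 12.0 CPM in the ileal libraries labelled Sec-Cre Apc-null, against 9.53 and 14.2 CPM in ileal WT ISCs. Cdh5 made up most of the duodenal sum, at 71.5, 66.2 and 140.4 CPM. In organoids Cdh5 stood at 7.07 to 23.2 CPM in the Apc-null libraries, against no count in WT organoids, the same groups as collagen IV. Tek, an endothelial receptor, averaged 1.10 CPM in Sec-Cre organoids and 2.12 CPM in ISC-Cre organoids, against 0.2105 CPM in WT organoids, and 6.68 CPM in duodenal ISCs, against 0.265 CPM in ileal WT ISCs. Vwf, von Willebrand factor, averaged 2.71 CPM in Sec-Cre organoids and 2.87 CPM in ISC-Cre organoids, against 3.75 CPM in WT organoids, and 18.55 CPM in duodenal ISCs, against 3.46 CPM in ileal WT ISCs. The part of these cells in the collagen IV values was not tested. The 10 epithelial markers were detected in all libraries, with sums of 6576 to 24000 CPM, and 6 of them were called lower in Sec-Cre and 8 in ISC-Cre organoids against WT organoids.

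**Figure D5:**
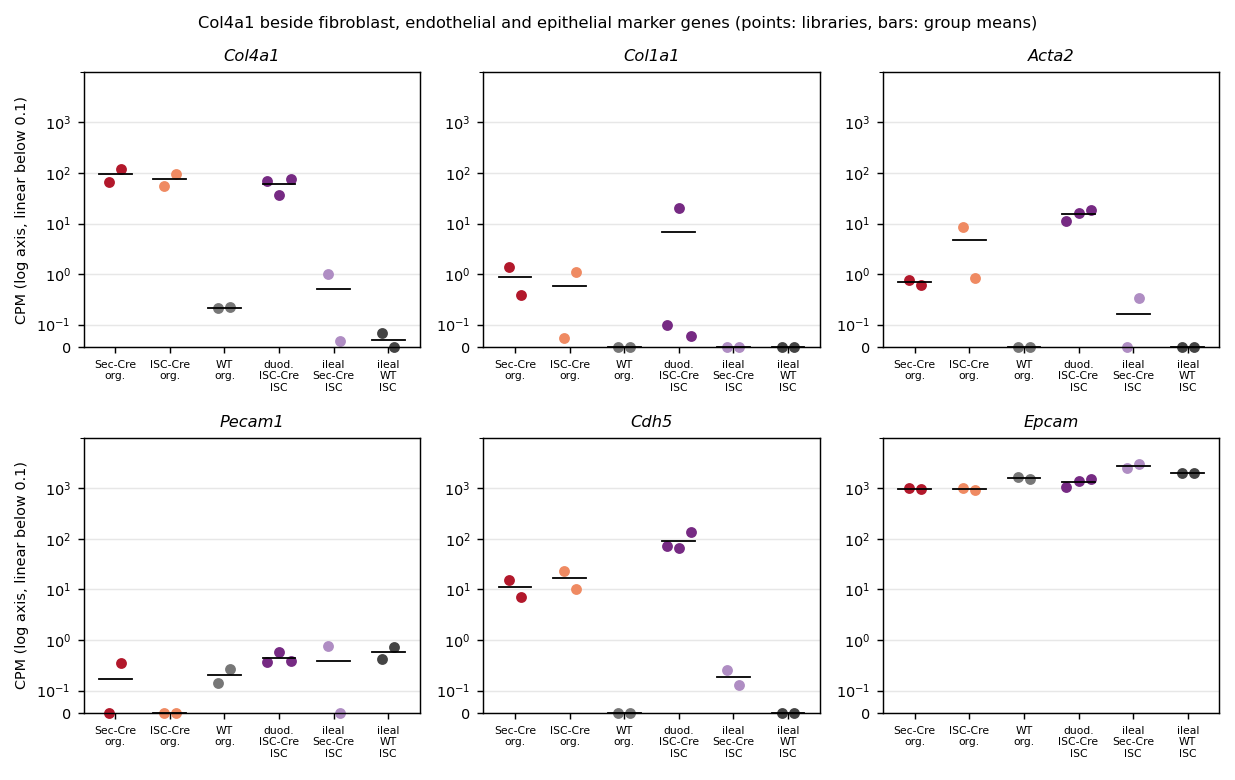
Levels of Col4a1, Col1a1 and Acta2 (fibroblast and muscle markers), Pecam1 and Cdh5 (endothelial markers) and Epcam (epithelial marker) in CPM (vertical axis, logarithmic above 0.1 and linear below) per library (points), with bars at group means. Pecam1 stays at or below 0.756 CPM in all libraries, Col1a1 exceeds 1.35 CPM only in duodenal replicate 2, at 20.2 CPM, and Cdh5 stands at 7.07 to 140.4 CPM in Apc-null organoids and duodenal ISCs and at most at 0.252 CPM in the other groups.

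The laminin chain genes Lama4 and Lamb2 were also higher in both groups of Apc-null organoids. Lama4, a chain of vessel and muscle laminins, averaged 6.41 ± 3.27 CPM in Sec-Cre organoids and 12.6 ± 4.02 CPM in ISC-Cre organoids, against 0.0878 ± 0.12 CPM in WT organoids (SD, n = 2 each; edgeR adjusted p = 0.00183 and 0.000795). Lamb2 averaged 80.8 ± 7.04 and 109.3 ± 39.9 CPM, against 21.0 ± 2.29 CPM in WT organoids. Ntn4, netrin 4, did not pass in either group (edgeR adjusted p = 0.435 and 0.887). Lama4, with 4 counts in WT organoids, passed the filter on low counts only through the Apc-null libraries and could be called only as higher.

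Of the other collagen IV chains, 1 of 2 tested was higher and 0 lower in each Apc-null group (medians 3.44 and 3.46 at the bound). Col4a5 averaged 5.05 ± 2.86 CPM in Sec-Cre organoids and 8.88 ± 0.91 CPM in ISC-Cre organoids (SD, n = 2 each) and had no count in WT organoids, at least 62.3-fold (edgeR adjusted p = 0.00126) and 109.7-fold (adjusted p = 0.000703) higher against the floor over the group. Col4a3 did not pass (edgeR adjusted p = 0.397 and 0.914). Of other basement membrane components, 8 of 18 tested were higher in both groups, 4 lower in Sec-Cre and 3 lower in ISC-Cre organoids (medians 0.83 and 0.96). Beside them, 16.7% and 19.3% of all genes were called higher in Sec-Cre and ISC-Cre organoids, and 2318 and 2628 of 14208 genes lower. Col18a1, the precursor of endostatin, averaged 62.9 ± 8.24 and 135.1 ± 59.9 CPM, against 0.759 ± 0.02 CPM in WT organoids. Frem2, of the epithelial FRAS1 complex, averaged 20.4 ± 2.30 and 25.6 ± 3.42 CPM, against 0.211 ± 0.20 CPM, and Npnt, an integrin ligand, 78.7 ± 13.2 and 78.9 ± 0.40 CPM, against 11.1 ± 3.15 CPM. Tinag fell to 6.36 ± 1.71 and 4.85 ± 0.01 CPM, against 28.3 ± 3.73 CPM in WT organoids. Col4a5 and Frem2, the latter with 9 counts in WT organoids, passed the filter on low counts only through the Apc-null libraries. They could therefore be called only as higher.

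Among matrix receptors 6 of 17 tested were higher and 4 lower in Sec-Cre organoids, and 7 higher and 4 lower in ISC-Cre organoids (medians 0.32 and 0.41). In these comparisons 16.7% and 19.3% of all genes were called higher, and 2318 and 2628 of 14208 genes lower. Bcam, a receptor for the Lama5 chain, averaged 94.3 ± 0.43 and 125.1 ± 23.0 CPM, against 33.3 ± 8.21 CPM in WT organoids (SD, n = 2 each). Itgav and Itgb6, integrin subunits that bind RGD ligands, were higher by 1.46 and 1.62 on the log2 scale in Sec-Cre organoids, while the proteoglycan Sdc4 was lower by -0.71 in Sec-Cre and -1.17 in ISC-Cre organoids. Of the genes for folding and crosslinking collagen, 5 of 14 were higher in both groups, with 2 lower in Sec-Cre and 3 lower in ISC-Cre organoids (medians 1.08 and 0.82, with genes absent from one group at their bound). Pxdn, peroxidasin, which forms the sulfilimine bonds between collagen IV molecules, averaged 105.9 ± 3.76 and 185.9 ± 62.2 CPM, against 0.671 ± 0.14 CPM in WT organoids (edgeR adjusted p = 2.8e-05 and 2.3e-05). The lysyl oxidase-like enzymes Loxl2 and Loxl4 were higher by 5.61 and 6.37 on the log2 scale in Sec-Cre organoids, and P4hb, a subunit of prolyl hydroxylase, was lower by -0.95. Loxl2 and Loxl4, with 9 and 6 counts in WT organoids, passed the filter on low counts only through the Apc-null libraries. They could be called only as higher.

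Matrix proteases and their inhibitors had 14 of 18 tested higher and 0 lower in both Apc-null groups (medians 2.67 and 3.39 with genes absent from one group at their bound). The share of all genes called higher was 16.7% in Sec-Cre and 19.3% in ISC-Cre organoids. Several genes of this list passed the filter on low counts only through the Apc-null libraries, among them Mmp11 and Plau. These had 6 and 2 counts in WT organoids. Such genes could be called only as higher, so the absence of lower calls is not read as a result about the list. Timp2, a metalloproteinase inhibitor, averaged 115.9 ± 18.6 and 158.2 ± 12.4 CPM, against 3.34 ± 0.55 CPM in WT organoids (SD, n = 2 each). Mmp11, a stromelysin, averaged 15.8 ± 0.18 and 21.8 ± 4.23 CPM, against 0.158 ± 0.02 CPM, and the plasminogen activators Plat and Plau were higher by 2.99 and 6.96 on the log2 scale in Sec-Cre organoids.

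The same lists were counted in ISCs. In duodenal ISC-Cre ISCs against ileal WT ISCs, 8 of 18 proteases and inhibitors were higher and 0 lower, 6 of 19 other components higher and 3 lower, 5 of 18 receptors higher and 2 lower, 2 of 13 folding and crosslinking genes higher and 0 lower, and 0 of 2 other collagen IV chains changed. The median log2 changes of these lists, in that order, were 2.70, 0.61, 0.72, 1.14 and 2.34, with genes absent from one group at their bound. Of all 14577 genes, 10.2% were called higher in this comparison and 1289 genes lower. Genes of these lists such as Mmp11, with 4 counts in ileal WT ISCs, passed the filter on low counts only through the duodenal libraries. They could be called only as higher. Plat averaged 271.0 ± 26.0 CPM in duodenal ISCs (SD, n = 3) and 0.713 ± 1.01 CPM in ileal WT ISCs (n = 2), and Col18a1 80.0 ± 34.2 and 3.50 ± 0.02 CPM. Pxdn did not follow the organoids: it averaged 25.0 ± 4.82 CPM in duodenal ISCs and 41.4 ± 7.64 CPM in ileal WT ISCs and was not called (edgeR adjusted p = 0.121). Lama4 was lower in duodenal ISCs, at 0.716 ± 0.28 CPM against 5.58 ± 0.11 CPM in ileal WT ISCs (edgeR adjusted p = 0.0269).

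In the ileal libraries labelled Sec-Cre Apc-null against ileal WT ISCs, the calls were 1 higher and 1 lower of 19 other components, 1 higher and 2 lower of 18 receptors, 0 higher and 1 lower of 13 folding and crosslinking genes, 2 higher and 2 lower of 18 proteases and inhibitors, and 0 of 2 other collagen IV chains. Their medians, in that order, were 0.00, -0.32, -0.64, 0.48 and 0.88. Of all 14577 genes, 9.62% were called higher and 6.96% lower. Counts this small beside those shares are not read as a result about the lists. Lamb2 fell to 1.67 ± 1.21 CPM, against 12.4 ± 6.41 CPM in ileal WT ISCs (SD, n = 2 each; edgeR adjusted p = 0.0105), and Lama4 to 0.114 ± 0.16 CPM, against 5.58 ± 0.11 CPM (adjusted p = 0.0155). Hspg2, which encodes perlecan, was lower by -1.87 on the log2 scale (edgeR adjusted p = 0.00844) and Itga2, a collagen receptor subunit, by -3.12 (adjusted p = 0.00281).

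Likeness was measured as the root mean square difference between the log2 CPM profiles of 2 genes, each centred on its own mean, over the 13 libraries, among 10298 genes with predicted gene models and the members themselves left out. Among those genes the nearest to Col4a1 were Spock2 (1.10), Robo1 (1.33) and Notum (1.49), and nearest to Col4a2 were Gprc5b (1.27), Msln (1.47) and Spock2 (1.54). Col4a1 and Col4a2 stood 1.28 apart, so each lay closer to the other than to any of these genes except Spock2 for Col4a1 and Gprc5b for Col4a2. Lama3 lay nearest to Lats2 (0.60), Lamb3 to Ptprs (0.27), Lamc1 to Prkd3 (0.37), Lamb1 to Dtx3 (1.06), Nid1 to Sh3pxd2b (0.77) and Lama1 to Tcf7 (0.82). Among members the closest pair was Lamb3 and Lamc1, at 0.85. Members with few counts have a small range on this scale, and all genes share the same libraries, depth and scaling.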

How the data were processed

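Gene counts were deposited by the authors as 1 table per library with a count column for both strands together and 1 for each strand. Per the submitters' processing notes the reads were processed with STAR and the mm10 build, and DESeq2 1.22.2 is named there; the annotation and the STAR version are not given in the sources used here. Per the labels' protocols the kit does not mark strand, although 3 libraries proved strand-specific. The 4 summary lines of each table were left out, and the counts of both strands were used.

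Here edgeR 4.0.16 in R 4.3.3 was used (quasi-likelihood test, TMM scaling, filterByExpr with a minimum count of 10, Benjamini-Hochberg adjustment over all genes of a fit). Organoids (6 libraries, 14208 genes), ISCs (7 libraries, 14577 genes) and, for comparisons across them, all 13 libraries (15208 genes) had a fit each, with group as the factor. The test was checked on simulated counts. Fold bounds use a floor of 3 counts over a group, and intervals and floors cover counting error alone. Gene lengths are exon bases from GENCODE release 21, and promoters are from RefSeq on GRCm38.p6.

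The members and the gene lists were chosen with earlier results of these data known. All 9 members are named in every comparison; from each other list the 4 genes with the smallest adjusted p over both organoid comparisons are named, and in ISCs up to 4 called genes of the lists, to which Pxdn in duodenal ISCs was added after its values were seen. Alternatives were DESeq2's size factors, DESeq2 1.42.0, no filter, limma voom (limma 3.58.1) with quality weights, a replicate block, 1 fit of all libraries, sense-strand counts and leaving out each library. No library was a duplicate of its replicate: a chi-square test of their counts gave 18.9 to 1655 for each degree of freedom. Some genes of the lists, and counts, sums and likeness values that rest on them, are not reported here.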

Additional observations from a re-analysis of the deposited data

Results flagged for a closer look

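The Sec-Cre effect on 3 members differed between organoids and the ileal libraries labelled Sec-Cre Apc-null, by a test of the difference itself in a fit of all 13 libraries. The difference of log2 changes was 4.26 for Lama5 (edgeR adjusted p = 0.00536), 2.97 for Lamc1 (adjusted p = 0.00605) and 7.43 for Nid1 (adjusted p = 0.0252). For Lama5 and Lamc1 the call held under all 19 alternatives tried. For Nid1 it was lost under 6 of 19, and its size rests on 0 counts in both ileal libraries labelled Sec-Cre Apc-null. Those libraries also had the lowest Axin2 of all groups, at 80.9 and 38.2 CPM, and the part of this in the difference was not tested. Groups of 2 or 3 libraries are too small to test a single library as an outlier.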

How the results depend on the processing

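Over 62 values of members in comparisons and 890 alternatives, 793 kept direction and call, 51 lost the call, 29 gained it and 17 changed sign. Col4a1 and Col4a2 kept direction and call in every alternative in Apc-null against WT organoids and in duodenal against either ileal group of ISCs, with log2 changes of 8.25 to 9.07 and 5.74 to 7.14 in Sec-Cre organoids. Col4a2 in organoids apart, these genes passed the filter on low counts only through the high groups. Their direction could therefore not change, and only the call was open. Calls of members in ileal ISCs labelled Sec-Cre Apc-null numbered 1 rather than 2 with DESeq2's size factors, and 0 to 4 with 1 library left out. With 1 library left out, the calls of duodenal against ileal WT ISCs ranged from 3 to 8, of duodenal against ileal Sec-Cre ISCs from 5 to 8, and of WT organoids against ileal WT ISCs from 1 to 3.

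Changes of sign were confined to values not called with all libraries and edgeR. With 1 library left out, Sec-Cre against ISC-Cre organoids gave -0.16 to 0.77 for Col4a1 and -0.077 to 0.211 for Lamc1; ileal Sec-Cre against WT ISCs gave -2.47 to 0.20 for Lama5, -2.68 to 1.05 for Lamb1 and -0.20 to 0.41 for Lamb3; WT organoids against ileal WT ISCs gave -0.975 to 0.33 for Lama5; and the interaction gave -0.85 to 1.18 for Lama3. With limma voom the ileal values were -1.74 for Lamb1 and -0.008 for Lamb3, and the interaction was 0.30 for Lama3. With the replicate block Lamb1 was -0.33 in ileal ISCs. The causes were not tested.

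Counts of genes called in either direction moved with the settings in all comparisons other than duodenal against ileal Sec-Cre ISCs. The interaction had 4013 called genes, and 2513 and 2571 without one or the other Sec-Cre organoid library. In 1 fit of all libraries, 2477 genes rather than 4685 were called in Sec-Cre organoids against WT, 2997 rather than 5377 in ISC-Cre organoids, 1 rather than 6 between the Apc-null organoids, 4291 rather than 2417 in ileal ISCs and 4426 rather than 2783 in duodenal against ileal WT ISCs. DESeq2 called 71 between the Apc-null organoids, 3790 in ileal ISCs and 1188 rather than 589 between the WT groups. Limma voom gave 12 between the Apc-null organoids, 7375 in duodenal against ileal WT ISCs and 1409 between the WT groups, and no filter gave 24 between the Apc-null organoids. With 1 library left out the counts ranged from 2608 to 5101, 3194 to 5542, 0 to 9, 153 to 3183, 937 to 3962 and 162 to 1001 in these 6 comparisons.

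Replicate numbers did not pair the samples: same-numbered libraries had deviations correlated at -0.078 to 0.067. With the replicate as a block, 1671 rather than 2783 genes were called in duodenal against ileal WT ISCs, with 5 members rather than 7. Lamb1 passed in ISC-Cre organoids (adjusted p = 0.0450) and calls of Lama1 (0.155) and Lamc1 (0.0786) against ileal WT ISCs and of Lama1 (0.112) and Lama3 (0.0733) against ileal Sec-Cre ISCs were lost. Per kb of the longest transcript in place of all exon bases, 14 of 48 group means moved by more than their SD. Lamb3 rather than Lama5 then came first in ISC-Cre organoids. Depth limits Lama1, Nid1 and collagen IV in WT and ileal libraries, which rest on a few counts.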
